A study of Mus musculus with 48 samples.

Results

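Chronic ultra-mild stress (CUMS) was compared with no stress in the medial prefrontal cortex (mPFC) of ovariectomized female mice, by gene expression arrays. The comparison used 12 of the 48 samples of the series, chosen by their titles, with 6 OVX+stress mice and 6 OVX mice. All 12 were female C57BL/6J mice, 17 weeks old, whose ovaries had been removed on both sides, so both groups lacked their ovaries and the label that separated them was the stress. CUMS was a weekly schedule of mild stressors, among them a tilted, small or soiled cage, an odor, difficult access to food, a night with the lights on and a reversed light/dark cycle from Friday to Monday. The OVX mice were handled only for cage cleaning. Each array held the RNA of 1 mouse, whose mPFC had been dissected by hand from coronal slices, so a sample contained every cell type of the dissected block. All markers of cortical excitatory neurons (5 of 5), interneurons (6 of 6), astrocytes (5 of 5), oligodendrocytes (5 of 5) and microglia (5 of 5) were well above background on all 12 arrays. Markers of neighbouring tissue were detected as well, with 6 of 6 striatal and 6 of 6 meningeal markers above background on all 12 arrays. Of the choroid plexus markers, 2 of 5 reached that level and Kcne2 was above background on no array, and of the olfactory bulb and subcortical markers 3 of 4 did, with Eomes above background on 1 array.

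The mPFC steers the hormonal and autonomic stress response and is itself a target of it. Glucocorticoids released during stress bind the glucocorticoid receptor Nr3c1 and the mineralocorticoid receptor Nr3c2 in its neurons, and estrogen receptors act in the same cells. Neuronal firing there is followed within minutes by transcription of immediate early genes, and local circuits are balanced between pyramidal neurons and GABAergic interneurons. Ovariectomy is used in rodents as a model of menopause, and the added stress as a model of depression after it.

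A level in the following is the log2 signal of a probe minus the 75th percentile of the log2 signals of its array, so 0 stands for a probe as bright as that percentile and negative levels for dimmer probes. A difference is the mean level of the OVX+stress mice minus that of the OVX mice. The 12 arrays were alike in brightness, with 75th percentiles of 571.592 to 638.134 intensity units and 32207 to 36680 probes well above background. They lay on 2 glass slides, which held the groups unequally. Slide 3 carried all 6 OVX+stress arrays, at positions 3 to 8, and OVX replicates 5 and 6, at positions 1 and 2, while OVX replicates 1 to 4 were on slide 2. The slide could therefore be told apart from stress only through the 2 OVX arrays on slide 3, and the position on that slide cannot be told apart from stress at all. Among the OVX mice alone, which all had the same treatment, 123 probes differed between the slides (0.418% of 29440, limma, adjusted p under 0.05), 44 being higher and 79 lower on slide 3. The fit with slide as a block, which sets the OVX+stress arrays against OVX replicates 5 and 6, is given as the within-slide difference beside many of the results.

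**Figure D1:**
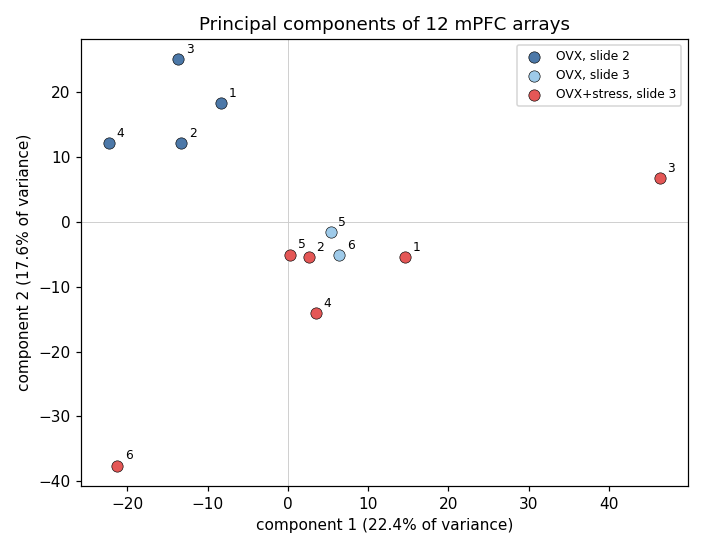
Principal component scores of the 12 arrays over the 29440 tested probes (each numbered point is the array of 1 mouse by its replicate number, the colour marks group and slide, and both axes are unitless scores). The first component held 22.4% of the variance and set OVX+stress replicate 3 apart at a score of 46.3, the second held 17.6% and set OVX+stress replicate 6 apart at -37.6, and OVX replicates 1 to 4, on slide 2, had scores of 12.1 to 25 on the second component.

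The OVX+stress mice varied more than the OVX mice. The standard deviation of the differences between pairs of arrays was 0.25 to 0.325 on the log2 scale among OVX mice and 0.24 to 0.473 among OVX+stress mice. In the plot of principal components, OVX+stress replicates 3 and 6 lay far from the other arrays, and OVX+stress replicate 5 stood apart in neutrophil genes, as described with the cell type markers. The values without these 3 arrays together are given beside the lists whose counts or medians they change most.

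No probe passed the test for an effect of stress. Of 29440 probes well above background on all 12 arrays, which covered 15190 named genes, 0 had an adjusted p under 0.05 (0% called; limma, Benjamini-Hochberg), and the smallest adjusted p was 0.371. At an unadjusted p under 0.05, 2948 probes (10%) differed, of which 1670 were higher (5.67%) and 1278 lower (4.34%) in OVX+stress mice. Of these 2948 probes, 349 also had an unadjusted p under 0.05 in the same direction within the slide, where 809 probes (2.75%) reached that level and 0 were called. The 6 OVX+stress arrays all lay above the 6 OVX arrays in 70 probes (0.238%) and all lay below them in 52 (0.177%). An exact permutation test over the 924 splits of the 12 arrays cannot give a p below 0.00216, which these 122 probes had. The same exact test called 0 probes after adjustment and gave 2862 probes an unadjusted p under 0.05, and the methods' t-test on the same values called 0, with 2748 at an unadjusted p under 0.05. All differences named from here on are thus below the level of a call, and the verbs give a direction of the mean and no more.

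The direction depended on the reference against which the arrays were scaled. The median difference of all tested probes was -0.0014 with the 75th percentile as the reference, but -0.1487 with the added E1A spike-in RNA, and the unadjusted split turned from 1670 higher and 1278 lower to 198 higher and 4892 lower. The 75th percentile is the reference of every difference given here unless another is named. Under the spike-in scaling they would be lower by about that shift. Among the OVX mice alone, the spike-in scaling took the median difference of slide 3 minus slide 2 from -0.0019 to -0.1062. The spike-in level relative to the 75th percentile was -0.905 in OVX+stress replicate 6. It was -1.41 to -1.13 in the other stressed mice and -1.43 to -1.23 in the OVX mice. The share of the slide and of that mouse in the shift was not tested.

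**Figure D2:**
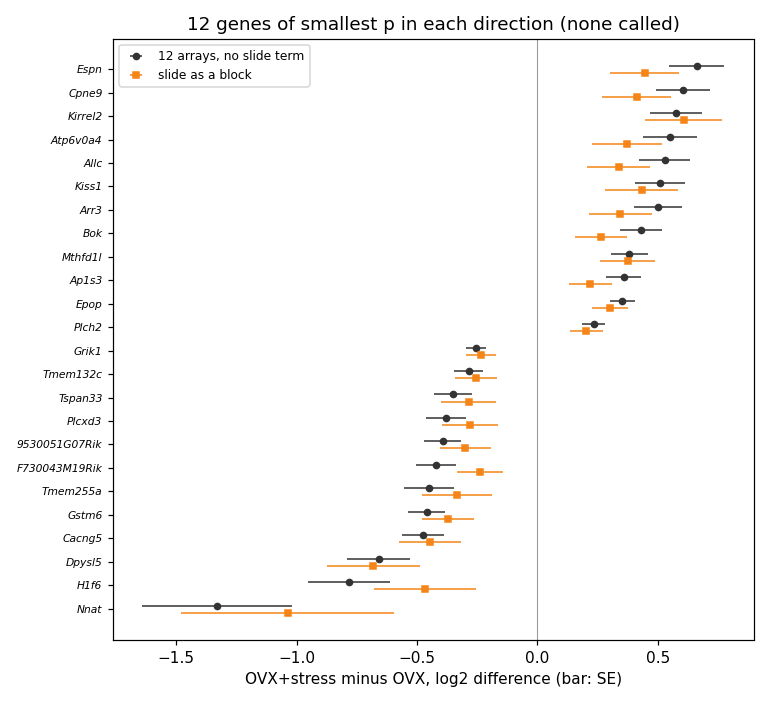
Difference between OVX+stress and OVX mice in the 12 genes of smallest unadjusted p in each direction (horizontal axis in log2 units, points for the estimate over 12 arrays and squares for the within-slide estimate, bars for 1 SE). Both estimates lay on the same side of 0 for every gene shown, with Nnat the farthest at -1.33 and -1.04, and none of these genes passed the adjusted threshold.

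The genes with the smallest p among those higher after stress were mostly of low to moderate level. Epop, which encodes a partner of Polycomb repressive complex 2, had levels of 4.49 to 4.68 (median 4.58) in OVX mice and 4.82 to 5.04 (median 4.94) in OVX+stress mice. The groups did not overlap, the difference was 0.35 ± 0.05 (SE, a 1.28-fold ratio; exact permutation p = 0.00216) and the within-slide difference 0.30 ± 0.07. Kirrel2, an immunoglobulin-family adhesion molecule of neurons, ranged from -2.62 to -2.14 in OVX mice, against -2.09 to -1.52 in OVX+stress mice. It was higher by 0.57 ± 0.11 and by 0.61 ± 0.16 within the slide, so both estimates were alike. For Espn, an actin-bundling protein, 1 probe was higher by 0.66 ± 0.11, and by 0.45 ± 0.14 within the slide, and the other by only 0.248. Kiss1, the precursor of the kisspeptins that drive the reproductive axis, was at -0.82 to -0.33 (median -0.69) in OVX mice and at -0.28 to 0.17 (median -0.15) in OVX+stress mice. Its groups did not overlap, and its 2 tested probes differed by 0.418 and 0.507. The 1-carbon metabolism enzyme Mthfd1l was higher by 0.38 ± 0.08 without overlap, and by 0.37 ± 0.11 within the slide. The phospholipase Plch2, at 3.04 to 3.18 and 3.25 to 3.47, did not overlap either and was higher by 0.23 ± 0.05.

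The groups of Cpne9, a copine of the calcium-dependent membrane-binding proteins, overlapped through a single mouse. Its levels were 1.37 to 1.98 (median 1.44) in OVX mice and 1.88 to 2.42 (median 2.13) in OVX+stress mice. OVX replicate 6 had the level 1.98, while the other 5 OVX mice had 1.37 to 1.54. The proton pump subunit Atp6v0a4 had the same form, with OVX replicate 6 at -3.14 and the others at -3.81 to -3.66. Without OVX replicate 6, both passed the adjusted threshold together with 2 unnamed probes that were lower (4 calls in all, limma adjusted p = 0.0268, against 0.371 with all 12 arrays). This mouse shares slide 3 with the OVX+stress mice, and the within-slide differences were 0.41 ± 0.14 for Cpne9 and 0.37 ± 0.15 for Atp6v0a4. The remaining genes of this set were Bok, a member of the Bcl-2 family (0.43 ± 0.09), Ap1s3, an adaptor subunit of clathrin coats (0.36 ± 0.07), the arrestin Arr3 (0.50 ± 0.10) and the allantoicase Allc (0.53 ± 0.10).

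Nnat had the largest difference among the named genes. It encodes neuronatin, a small membrane protein of the endoplasmic reticulum, and is an imprinted gene expressed from the paternal copy. Its level was 2.77 to 3.71 (median 3.16) in OVX mice and 0.80 to 2.85 (median 1.64) in OVX+stress mice. In OVX+stress mice 5 of 6 arrays lay below all OVX arrays and the spread was wider. The mean was lower by 1.33 ± 0.31 (a 2.51-fold ratio; exact permutation p = 0.00433) and by 1.04 ± 0.44 within the slide, and its second probe differed by -1.43. In the sham-operated mice of the series stress minus control was 0.02, and the interaction of -1.35 (limma adjusted p = 0.0838) was not called. Another imprinted gene expressed from the paternal copy, Dlk1, was among the 20 probes whose difference exceeded 1 in size. It had a mean of -0.258 ± 0.337 (SD, n = 6) in OVX mice and -1.40 ± 1.04 (SD, n = 6) in OVX+stress mice. Dct, which encodes an enzyme of melanin synthesis, had the largest difference of all tested probes, at -1.44, with SDs of 1.43 in OVX mice and 1.01 in OVX+stress mice and a within-slide difference of -0.597. These 2 genes lie outside the rule for named genes and were chosen after their values were seen.

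The other genes with the smallest p among those lower after stress included parts of excitatory synapses. Grik1, a subunit of kainate receptors, had levels of -0.41 to -0.29 (median -0.35) in OVX mice and -0.70 to -0.52 (median -0.61) in OVX+stress mice. The difference was small but the spread was smaller, at -0.26 ± 0.04 (exact permutation p = 0.00216), and it was -0.23 ± 0.06 within the slide. Cacng5, a transmembrane auxiliary subunit of AMPA receptors, ranged from -1.16 to -0.58 in OVX mice, against -1.54 to -1.22 in OVX+stress mice. It was lower by 0.48 ± 0.09 without overlap, and by 0.45 ± 0.13 within the slide. Dpysl5, a collapsin response mediator of growing axons, was at -3.10 to -2.80 in OVX mice, against -4.15 to -3.17 in OVX+stress mice, where it was lower by 0.66 ± 0.13 and by 0.68 ± 0.19 within the slide. The OVX+stress mice were again the more variable group, and the second, brighter probe of the gene differed by only -0.13 with overlapping groups. Gstm6, a glutathione S-transferase, differed by -0.46 ± 0.08 in its brightest probe and by -0.844 to -0.047 over its 4 probes, Plcxd3 by -0.38 ± 0.08, the membrane proteins Tmem132c and Tmem255a by -0.29 ± 0.06 and -0.45 ± 0.10, and the germ-line linker histone H1f6 by -0.78 ± 0.17. Tspan33, a tetraspanin, was at 3.57 to 3.80 in OVX mice, against 3.11 to 3.63 in OVX+stress mice, and was lower by 0.35 ± 0.08. The transcripts 9530051G07Rik (-0.39 ± 0.08) and F730043M19Rik (-0.42 ± 0.08), of unknown function, completed the set.

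Immediate early genes were higher on average in the stressed mice. These genes are transcribed without new protein synthesis when a neuron fires, through the calcium-activated factor CREB and the serum response factor, and encode transcription factors, phosphatases and synaptic proteins. Of 32 listed genes, 30 were tested on all arrays, 21 were higher and 9 lower, and the median difference was 0.195 against -0.0014 over all probes. None was called. At an unadjusted p under 0.05, 10 of the 30 were higher (33.3%, against 5.67% of all probes) and none was lower. For 15 of 23 genes of the list with a promoter in the RefSeq table (GRCm38.p6), the 250 bases before the start held the CREB half-site TGACG on either strand (65.2%, against 19.8% of 27025 genes), and 2 of 23 held the full palindrome TGACGTCA (8.70%, against 1.77%). The half-site is part of the palindrome. A gene counted if any of its promoters in the table held the string. The 23 genes had 35 promoters and the 27025 genes 32851, so the list had more promoters per gene. The 27025 genes were not limited to those tested here. A match is a string of letters and no measured binding. Of the genes higher at the unadjusted level, the promoters of Fos (chr12:85473640-85473889, plus strand) and Nr4a1 (chr15:101266596-101266845, plus strand) are given 5′ to 3′ because they held 2 and 4 half-sites, marked in capitals (CGTCA is TGACG on the other strand).
Fos: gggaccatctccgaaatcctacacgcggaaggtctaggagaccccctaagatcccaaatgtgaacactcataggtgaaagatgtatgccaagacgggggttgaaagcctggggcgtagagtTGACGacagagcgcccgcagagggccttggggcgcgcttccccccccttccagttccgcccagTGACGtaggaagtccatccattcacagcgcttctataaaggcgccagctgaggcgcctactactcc
Nr4a1: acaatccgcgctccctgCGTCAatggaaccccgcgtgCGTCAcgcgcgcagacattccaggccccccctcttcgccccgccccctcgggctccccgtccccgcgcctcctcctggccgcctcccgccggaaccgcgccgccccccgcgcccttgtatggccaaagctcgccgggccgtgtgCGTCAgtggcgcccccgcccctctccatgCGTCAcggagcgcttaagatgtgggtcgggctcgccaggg

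Arc, a synaptic protein that drives AMPA receptor endocytosis, had the largest difference of the list. Its level was 3.12 to 4.21 (median 3.67) in OVX mice and 3.57 to 4.86 (median 4.50) in OVX+stress mice. The level was above all OVX mice in 4 of the 6 OVX+stress mice, and the lowest, replicate 5 at 3.57, lay within the OVX range. The difference was 0.70 ± 0.23 (a 1.63-fold ratio; exact permutation p = 0.026). Fos, a subunit of the transcription factor AP-1, was at 0.38 to 0.78 (median 0.59) in OVX mice and at 0.12 to 1.52 (median 1.29) in OVX+stress mice. Its level exceeded every OVX mouse in 5 OVX+stress mice, while replicate 5 had the lowest level of all 12, and the difference was 0.51 ± 0.21 (exact permutation p = 0.0498). Nr4a1, an orphan nuclear receptor, was at 4.75 to 5.32 (median 4.98) and 4.99 to 5.77 (median 5.51), with a difference of 0.47 ± 0.14. Replicate 5 was once more the lowest OVX+stress mouse, and the other 5 lay above all OVX mice.

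The zinc finger factors Egr1 and Egr4 were higher by 0.37 ± 0.12 and 0.40 ± 0.14, the ERK phosphatase Dusp6 by 0.42 ± 0.12 and the pseudokinase Trib1 by 0.33 ± 0.10. The clock gene Per1, which is also an immediate early gene, was higher by 0.23 ± 0.08, the kinase Sik1 by 0.21 ± 0.09, and the postsynaptic scaffold Homer1 by 0.11 ± 0.05. Other members differed by less than their spread. Npas4, a factor specific to neuronal activity, was at 1.04 to 2.01 in OVX mice, against 1.06 to 2.86 in OVX+stress mice (0.27 ± 0.29), with a within-slide difference of the other sign, -0.13 ± 0.39. Egr2, Junb and Fosb differed by 0.40 ± 0.26, 0.23 ± 0.15 and -0.03 ± 0.18, and Bdnf, the neurotrophin induced by activity, by 0.09 ± 0.12.

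The slide and single arrays moved with this group of genes. Its mean level, centred on each gene, was -0.207 to -0.068 in the OVX mice of slide 2 and -0.003 to 0.019 in those of slide 3, so the OVX mice differed by slide in the same direction as the stressed mice. The median difference within the slide was 0.098, with 17 genes higher, 13 lower and none at an unadjusted p under 0.05, and those for Arc, Fos and Nr4a1 were 0.32 ± 0.30, 0.34 ± 0.30 and 0.20 ± 0.18. OVX+stress replicate 5 had the lowest list mean of all 12 mice, at -0.248, and the other 5 stressed mice had -0.061 to 0.268. Without OVX+stress replicates 3, 5 and 6, the median difference was 0.24 and 16 genes were higher at the unadjusted level, as were 1633 of all 29440 probes. With the spike-in scaling the median was 0.05 and only 2 genes were higher at that level, as were 198 of all probes.

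**Figure D3:**
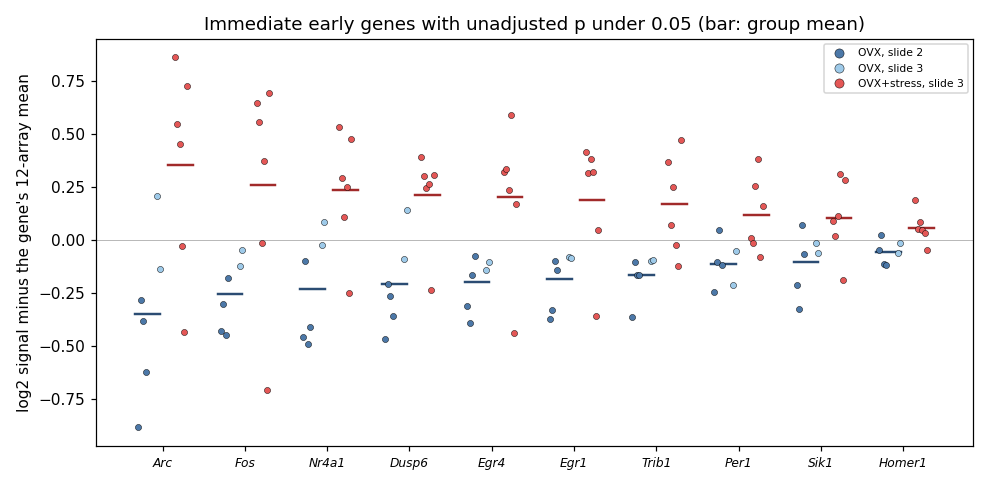
The 10 immediate early genes with an unadjusted p under 0.05 on each of the 12 arrays (each point is 1 mouse, the vertical axis is the log2 signal minus the mean of the gene over the 12 arrays, bars are group means, and the colour marks group and slide). Most stressed mice lay above the OVX mice, 1 stressed mouse lay below all of them in Fos, and the OVX mice of slide 3 lay in the upper part of the OVX range for Arc, Fos and Nr4a1.

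Circadian clock genes also had higher means in the stressed mice, while the OVX mice of both slides lay in 1 range. In the clock, Clock and Bmal1 activate the Per and Cry genes through E-boxes, and the Per and Cry proteins then repress them, while Dbp and Tef are output factors driven by the same sites. Of 22 listed genes, 20 were tested, 16 were higher and 4 lower, and the median difference was 0.164. None was called, and 7 of 20 were higher at an unadjusted p under 0.05 (35%, against 5.67% of all probes) with none lower. The list mean of the OVX mice was -0.098 to -0.043 on slide 2 and -0.101 to -0.05 on slide 3, the OVX+stress mice had -0.069 to 0.195, and the within-slide median was 0.14. The list shares Per1 with the immediate early genes.

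Per2, a repressor of the clock, was at -1.06 to -0.62 (median -0.95) in OVX mice and at -0.68 to -0.20 (median -0.52) in OVX+stress mice. The groups overlapped narrowly, with 4 of 6 stressed mice above all OVX mice. It was higher by 0.41 ± 0.10 (a 1.32-fold ratio; exact permutation p = 0.00649) and by 0.52 ± 0.14 within the slide, where it alone of the list had an unadjusted p under 0.05. Per1 was at 4.23 to 4.52 (median 4.36) and 4.39 to 4.85 (median 4.56), with the stressed mice in the upper part of a shared range. Its difference of 0.23 ± 0.08 was 0.25 ± 0.12 within the slide. Cry1, which represses together with the Per proteins, was at -3.08 to -2.81 (median -2.87) in OVX mice and at -2.91 to -2.21 (median -2.49) in OVX+stress mice, and 4 stressed mice lay above all OVX mice. It was higher by 0.36 ± 0.11 and by 0.31 ± 0.16 within the slide. Tef was at 7.10 to 7.19 in OVX mice, against 7.18 to 7.50 in OVX+stress mice, so only the edges of the groups met, with a difference of 0.18 ± 0.06 (exact permutation p = 0.00433). Per3, Dbp and the repressor Bhlhe40 were higher by 0.24 ± 0.11, 0.24 ± 0.11 and 0.26 ± 0.12. Nr1d1, a repressor of Bmal1, was among the 4 genes with a lower mean, at -0.14 ± 0.11. With the spike-in scaling the list median was 0.02, and without OVX+stress replicates 3, 5 and 6 it was 0.19.

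The E-box CACGTG, which reads the same on both strands, lay within the 250 bases before the start of 5 of 17 tested clock genes with a promoter in the table (29.4%), namely Bhlhe41, Ciart, Cry1, Per1 and Tef. Of all 27025 genes 6.86% held it, and of the immediate early genes 6 of 23 (26.1%). Any promoter of a gene counted here too, with 25 promoters for the 17 clock genes and 32851 for the 27025 genes. The promoters of Per1 (chr11:69098699-69098948, plus strand), Tef (chr15:81802423-81802672, plus strand) and Cry1 (chr10:85185055-85185304, minus strand) are given 5′ to 3′, since these 3 genes held the E-box, in capitals, and were higher at the unadjusted level. The Per1 stretch lies before an alternative start inside the gene, which itself begins at chr11:69095108. Per2, the clock gene with the smallest p, held no such string in this window.
Per1: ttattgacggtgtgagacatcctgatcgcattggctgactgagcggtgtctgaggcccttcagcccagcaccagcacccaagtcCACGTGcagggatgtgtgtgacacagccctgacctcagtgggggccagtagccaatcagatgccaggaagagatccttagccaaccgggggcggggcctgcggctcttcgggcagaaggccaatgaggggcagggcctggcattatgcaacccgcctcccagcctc
Tef: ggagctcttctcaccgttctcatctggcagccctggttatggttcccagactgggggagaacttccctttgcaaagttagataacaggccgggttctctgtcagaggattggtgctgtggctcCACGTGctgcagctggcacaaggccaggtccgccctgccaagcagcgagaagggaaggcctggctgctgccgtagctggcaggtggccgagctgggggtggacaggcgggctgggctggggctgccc
Cry1: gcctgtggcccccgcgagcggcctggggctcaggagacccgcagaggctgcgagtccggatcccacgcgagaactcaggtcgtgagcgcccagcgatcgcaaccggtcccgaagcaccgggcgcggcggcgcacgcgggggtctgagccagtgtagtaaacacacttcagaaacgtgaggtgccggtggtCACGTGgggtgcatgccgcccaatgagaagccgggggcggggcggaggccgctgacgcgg

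**Figure D4:**
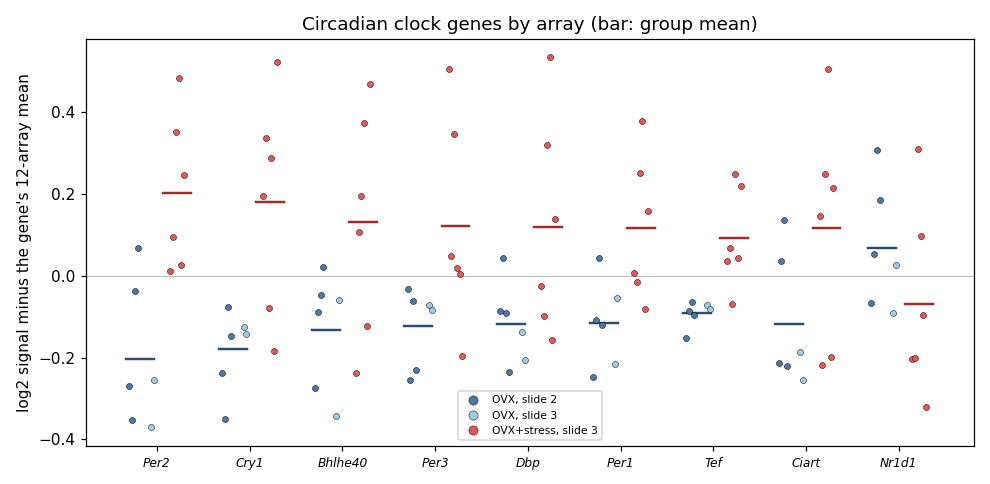
Circadian clock genes on each of the 12 arrays (each point is 1 mouse, the vertical axis is the log2 signal minus the mean of the gene over the 12 arrays, bars are group means, and the colour marks group and slide). The stressed mice had the higher mean in every gene shown but Nr1d1, at -0.14, and the groups overlapped in every gene shown.

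Interneuron markers were slightly lower in the stressed mice. Interneurons make GABA with the enzymes Gad1 and Gad2 and are told apart by the peptides and proteins they hold. Of 19 tested markers 6 were higher and 13 lower, the median difference was -0.044, and 5 were lower at the unadjusted level (26.3%, against 4.34% of all probes) with none higher and none called. Without OVX+stress replicates 3, 5 and 6 the median was -0.01 with 3 lower. Erbb4, the neuregulin receptor of interneurons, was at 2.87 to 2.98 (median 2.92) in OVX mice and at 2.70 to 2.85 (median 2.80) in OVX+stress mice. These groups did not overlap, although the difference was only -0.14 ± 0.04 (exact permutation p = 0.00216). Sst, the peptide somatostatin, was at 5.86 to 6.01 and 5.68 to 5.90 (-0.15 ± 0.05), Gad1 at 3.85 to 4.02 and 3.67 to 3.96 (-0.13 ± 0.06) and Gad2 at 3.44 to 3.53 and 3.29 to 3.47 (-0.13 ± 0.05). In Sst and Gad2 the stressed mice reached into the lower OVX range, and in Gad1 OVX+stress replicate 1, at 3.96, reached its upper part. The homeobox factor Dlx6 was lower by 0.28 ± 0.10 and by 0.50 ± 0.11 within the slide, and no other marker had an unadjusted p under 0.05 there (1.24% of all probes were higher and 1.51% lower at that level). Pvalb (0.13 ± 0.27) and Vip (-0.10 ± 0.08), which mark other interneuron classes, differed by less than their spread. Whether a lower level of a marker reflects fewer cells or less RNA per cell cannot be told apart in such bulk samples.

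Neuropeptides and their receptors went both ways. Of 21 tested genes 7 were higher and 14 lower, with 2 higher (9.52%, against 5.67% of all probes) and 5 lower (23.8%, against 4.34%) at the unadjusted level and a median of -0.045. Without OVX+stress replicates 3, 5 and 6 the median was 0.04, with 2 higher and 2 lower. Within the slide the median was -0.051, and 0 were higher and 0 lower at the unadjusted level. Cortistatin (Cort), a relative of somatostatin, was at 4.01 to 4.46 (median 4.12) in OVX mice and at 3.56 to 4.04 (median 3.96) in OVX+stress mice. It was lower by 0.30 ± 0.10 with only the edges of the groups meeting, and by 0.18 ± 0.14 within the slide. Tac1, the precursor of substance P, was lower by 0.28 ± 0.09. In the corticotropin-releasing hormone system, which starts the stress response, the peptide Crh was at 1.04 to 1.33 and 0.69 to 1.30 (-0.08 ± 0.10). Its receptor Crhr1 was higher by 0.29 ± 0.11, the receptor Crhr2 lower by 0.32 ± 0.12 and the binding protein Crhbp lower by 0.21 ± 0.07. Within the slide Crhr1 differed by 0.15 ± 0.15 and Crhbp by -0.06 ± 0.08. The abundant peptide Cck was at 8.40 to 8.61 in OVX mice, against 8.56 to 8.67 in OVX+stress mice, higher by 0.16 ± 0.05, and Npy differed by -0.04 ± 0.08.

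Excitatory neuron and layer markers went both ways. Of 20 tested genes 10 were higher and 10 lower, with 2 higher (10.0%, against 5.67% of all probes) and 3 lower (15.0%, against 4.34%) at the unadjusted level. Without OVX+stress replicates 3, 5 and 6 there were 3 higher and 1 lower. Within the slide 2 were higher and 0 lower at that level, with a median of 0.033. Cux2, a homeobox factor of the upper layers, was at 2.04 to 2.56 (median 2.26) in OVX mice and at 2.47 to 2.99 (median 2.66) in OVX+stress mice, where 5 of 6 mice lay above all OVX mice. It was higher by 0.41 ± 0.10 (exact permutation p = 0.00433), with its 2 probes at 0.403 and 0.410, and by 0.33 ± 0.14 within the slide. The 3 genes lower at the unadjusted level are the transcription factors Fezf2, Bcl11b and Foxp2 of the deep layers. Other deep-layer genes differed in both directions. Etv1 was at 0.131 and 0.43 in its 2 probes, Pcp4 at 0.10 ± 0.12 and Tbr1 at -0.05 ± 0.07. Both probes were lower in Tle4, at -0.299 and -0.149, and in Syt6, at -0.483 and -0.207. Fezf2 was at 2.76 to 2.99 and 2.36 to 2.86, with 5 of 6 stressed mice below all OVX mice and a difference of -0.26 ± 0.09. Bcl11b, at 2.62 to 3.13 and 2.09 to 2.78, differed by -0.39 ± 0.13 in 1 probe and by -0.38 in the other, and Foxp2 by -0.54 ± 0.21. Within the slide the differences of Fezf2, Bcl11b and Foxp2 were smaller, at -0.21 ± 0.12, -0.19 ± 0.17 and -0.28 ± 0.28. The vesicular glutamate transporter Slc17a7, shared by pyramidal neurons of all layers, was higher by 0.12 ± 0.05 and turned to -0.027 with the spike-in scaling.

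The steroid receptors were tested because ovariectomy and stress both change their ligands. The glucocorticoid receptor Nr3c1 was at 4.25 to 4.47 (median 4.42) in OVX mice and at 4.29 to 4.60 (median 4.41) in OVX+stress mice, a difference of 0.02 ± 0.06 that turned negative with the spike-in scaling. The mineralocorticoid receptor Nr3c2 was at -1.72 to -1.30 (median -1.59) and -2.45 to -1.61 (median -1.86), and 4 stressed mice lay below all OVX mice. It was lower by 0.34 ± 0.13 (exact permutation p = 0.0173), and its within-slide difference was -0.25 ± 0.18. The progesterone receptor Pgr was at 0.08 to 0.32 (median 0.22) in OVX mice and at 0.33 to 0.59 (median 0.38) in OVX+stress mice. Its groups did not overlap, the difference was 0.18 ± 0.06 (exact permutation p = 0.00216), and within the slide it was 0.12 ± 0.08. The orphan receptor Esrrb was higher by 0.34 ± 0.10, with a within-slide difference of 0.32 ± 0.14. The estrogen receptors Esr1 and Esr2 differed by -0.14 ± 0.26 and 0.05 ± 0.15, and Esr1 spread from -3.28 to -1.20 among the stressed mice. Of all 10 tested receptors, 3 were higher (30.0%, against 5.67% of all probes) and 1 lower (10.0%, against 4.34%) at the unadjusted level. Without OVX+stress replicates 3, 5 and 6 there were 4 higher and 0 lower. With the spike-in scaling 0 were higher and 2 lower, with a median of -0.11.

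Genes that glucocorticoids induce had means on both sides of 0. Of 20 tested genes, 12 were higher and 8 lower, the median was 0.067, which turned to -0.08 with the spike-in scaling, and 2 were higher at the unadjusted level (10.0%), Per1 and Map3k6. Fkbp5, a chaperone of the glucocorticoid receptor, was at 1.24 to 1.82 (median 1.44) and 1.14 to 1.52 (median 1.36), a difference of -0.12 ± 0.10 that was 0.02 ± 0.13 within the slide. Tsc22d3 differed by 0.11 ± 0.12 and the kinase Sgk1 by -0.04 ± 0.10. The ranges of the groups overlapped in all 3.

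Receptors for serotonin, dopamine and noradrenaline differed in both directions. Of 24 tested monoamine genes, 4 were higher (16.7%, against 5.67% of all probes) and 6 lower (25%, against 4.34%) at the unadjusted level, and the median was -0.029. The lower count was 2 without OVX+stress replicates 3, 5 and 6 and 3 without OVX replicate 3, and within the slide 0 were higher and 2 lower with a median of 0.027. Among serotonin receptors, Htr4 was at -1.34 to -0.60 (median -0.86) in OVX mice and at -2.49 to -1.02 (median -1.46) in OVX+stress mice, with 3 stressed mice below all OVX mice and a difference of -0.66 ± 0.23. Htr1f was lower by 0.37 ± 0.11, and by 0.41 ± 0.16 within the slide, while Htr2a was higher by 0.29 ± 0.12 but by 0.07 ± 0.16 within the slide. Among adrenergic receptors, the inhibitory Adra2a was at 0.55 to 1.63 (median 1.38) and -0.22 to 1.23 (median 0.65), lower by 0.60 ± 0.24 with a wide overlap, and its within-slide difference was -0.28 ± 0.33. Adra1a was lower by 0.25 ± 0.09, whereas Adrb1, Adra1d and Adra1b were higher by 0.27 ± 0.09, 0.25 ± 0.09 and 0.18 ± 0.08, with the dimmer probe of Adrb1 at -0.012. The dopamine receptors Drd1 and Drd5 were lower by 0.26 ± 0.10 and 0.31 ± 0.13, and Drd2, most abundant in striatal neurons, differed by 0.12 ± 0.18, a value that turned to -0.30 ± 0.19 within the slide and to -0.023 with the spike-in scaling.

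Markers of other cell types varied by mouse more than by group. Of 23 tested myelin and oligodendrocyte genes 20 were lower and 3 higher, with a median of -0.223 and none at an unadjusted p under 0.05. Their list mean ran from -0.304 to 0.64 in OVX mice, against -0.506 to 0.442 in OVX+stress mice, and OVX replicate 5 was the highest of all 12. The median was -0.08 without that mouse, -0.32 without OVX+stress replicate 3 and -0.322 within the slide. The differences of the 3 probes of Mbp, a myelin protein, ranged from -0.324 to 0.149. What set these mice apart was not tested.

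Single mice also stood apart in the genes of blood cells and meninges. All 4 tested neutrophil genes were higher, with a median of 0.537 and none at the unadjusted level. Lcn2 and S100a9, proteins of neutrophil granules and cytosol, were at 1.03 and 2.10 in OVX+stress replicate 5 and at -2.56 to -1.75 and -3.74 to -1.69 in the other 5 stressed mice. Without that mouse the list median was 0.146, and Ngp, Cxcr2, Mmp8 and Mmp9 were above background on no array. The mean of the 10 tested meningeal markers was 1.84 in OVX+stress replicate 6 and -0.65 to -0.331 in the other stressed mice, but -0.664 to 0.915 in OVX mice. Its median difference of -0.18 became -0.61 without that mouse, and it was 0.023 within the slide, with 6 genes higher and 4 lower. All 8 tested erythroid genes were higher, with a median of 0.37, and the hemoglobin gene Hba-a1 was at 3.42 to 5.33 in OVX mice, against 4.02 to 5.08 in OVX+stress mice. OVX replicate 3 was the highest in the erythroid mean, at 0.792, and without it the median was 0.60 with 6 genes at the unadjusted level. Within the slide the erythroid median was 0.913, again with 6 of 8 genes at the unadjusted level and Hba-a1 at 0.94 ± 0.40, and without OVX+stress replicates 3, 5 and 6 it was 0.15 with none. Both tested choroid plexus markers, Kl and Folr1, were lower, by 0.68 ± 0.26 and 0.48 ± 0.27. Their median of -0.58 was -0.53 to -0.62 without OVX+stress replicate 3, 5 or 6. Within the slide it was -0.457, and neither gene reached the unadjusted level there. The markers Ttr and Clic6 were well above background on only 9 and 11 arrays and were not tested. Ttr ran from -7.25 to -3.35 in OVX mice, against -6.37 to -1.1 in OVX+stress mice, where its highest level lay. Clic6 ran from -5.12 to -3.17 in OVX mice, against -4.98 to -4.43 in OVX+stress mice, so its highest level lay in an OVX mouse.

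**Figure D5:**
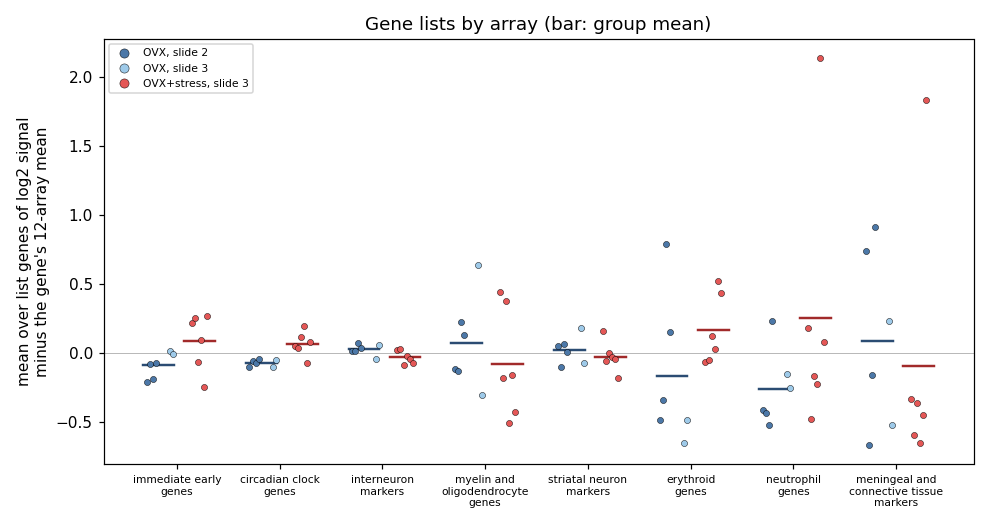
Mean of 8 gene lists on each of the 12 arrays (each point is 1 mouse, the vertical axis is the mean over the tested genes of the log2 signal minus the mean of each gene over the 12 arrays, bars are group means, and the colour marks group and slide). OVX+stress replicate 5 stood at 2.14 in neutrophil genes and OVX+stress replicate 6 at 1.84 in meningeal markers, while the clock genes of the OVX mice spread over -0.101 to -0.043.

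Other glial and vascular lists lay near 0. The microglial markers had a median of 0.048 (15 of 20 higher, none at the unadjusted level), with the fractalkine receptor Cx3cr1 at 3.92 to 4.17 and 3.78 to 4.17 (-0.03 ± 0.07). The astrocyte markers had a median of -0.039 (7 of 19 higher), with the filament protein Gfap at 0.18 to 1.70 and -0.22 to 1.55 (-0.45 ± 0.31). The endothelial and pericyte markers had a median of 0.052 (18 of 22 higher), with the tight junction protein Cldn5 at 0.15 ± 0.15. The medians of microglial and endothelial genes turned negative with the spike-in scaling, and were -0.04 and -0.07 without OVX+stress replicates 3, 5 and 6. Striatal markers had a median of 0.041 that was -0.048 within the slide and -0.11 with the spike-in scaling, and 1 was higher and 3 lower at the unadjusted level, with the brightest probe of Rgs9, a regulator of G protein signalling, at -0.46 ± 0.12 and its 4 probes at -0.493 to 0.031.

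The study picked 14 genes that differed both in the blood of patients and in the blood of the model mice, and 11 of them could be tested in the mPFC. Since they were chosen in part on blood of the same mice, they are no independent evidence of a direction. In the mPFC 8 were higher and 3 lower, the 3 lower ones at the unadjusted level (27.3%, against 4.34% of all probes), and the median was 0.02, or -0.13 with the spike-in scaling. Within the slide 5 were higher and 6 lower, with 0 at the unadjusted level and a median of -0.016. The 3 were Bcl11b, named above, Slc35f2 (-0.22 ± 0.07) and Nipal3 (-0.14 ± 0.06). Of the 4 main candidates, the amino acid transporter Slc36a1 was at -1.63 to -1.44 (median -1.58) in OVX mice and at -1.73 to -1.22 (median -1.55) in OVX+stress mice, a difference of 0.02 ± 0.08 whose sign turned with the spike-in scaling. Its second, dimmer probe differed by 0.71 ± 0.24, but by -0.06 within the slide. Cidec, Styxl1 and Rnase1 were well above background on 4, 5 and 9 of the 12 arrays and were not tested.

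The effect of stress after ovariectomy was set against the same effect in sham-operated mice (6 control and 6 stress mice), as an interaction over 24 arrays and 28849 probes. In sham-operated mice 4768 probes (16.5%) differed between stress and control, on slides that also held the groups unequally. The interaction was called for 1249 probes (4.33%), 941 above and 308 below 0 (limma, adjusted p under 0.05). With slide as a fixed block 0 probes were called, with 668 at an unadjusted p under 0.05, and with slide as a random block 0, with 1445 at that level. A difference between the stress effects in ovariectomized and sham-operated mice therefore cannot be told apart from the slides in these data. Among the genes named here, Cry1 (0.36 after ovariectomy, -0.15 in sham-operated mice, interaction 0.51, adjusted p = 0.0469) and Tspan33 were called without the block. The immediate early and clock genes had medians of 0.282 and 0.134 in sham-operated mice, and median interactions of -0.124 and -0.002 against -0.0394 over all probes.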

How the data were processed

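RNA from the mPFC of single mice was labelled with Cy3 and hybridised to 1-colour Agilent mouse arrays. The authors scanned them with Feature Extraction 10.7.3.1 and deposited the processed signal as an intensity per spot, background-subtracted by that software. They also deposited a normalized log2 table, shifted to the 75th percentile of each array, which served as an alternative. Once the median offset of each array was removed, 100% of the single-spot probes lay within 0.001 of the values computed here. The arrays' own annotation uses the mm9 build.

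The processed intensity was scaled here to the 75th percentile of each array and taken to log2. Outlier spots, 106 to 180 on each array, were dropped, spots of 1 probe were averaged, no spot was saturated, and probes had to be well above background on all 12 arrays. Genes were named through accession or symbol in a RefSeq table, and otherwise as on the array. A gene with several probes is given by the brightest one tested, except that the genes named for their p are given by the probe of smallest p. Groups were compared with limma 3.58.1 in R 4.3.3 on the 12 arrays, with Benjamini-Hochberg adjustment over all tested probes and a threshold of 0.05. A value after ± is a standard error unless marked SD. The number of mice, 6 per group, limits the precision. The interaction used all 24 mPFC arrays.

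The groups, gene lists and named genes were chosen with earlier results of these data known. Named by rule were the 12 genes with the smallest unadjusted p in each direction, since none was called, and the defining genes of each list. Other genes were named after their values were seen, mostly list members with an unadjusted p under 0.05. Replicate numbers did not pair the mice (correlations of same-numbered deviations from -0.11 to 0.085). Alternatives were another background correction (normexp, offset 50), other scalings, the authors' table, other filters on dim probes (none, 1 group only, or a signal over 50 on 2 arrays), the methods' t-test, slide as a block, the replicate block and leaving out arrays. Leaving out OVX+stress replicates 3, 5 and 6 together, and the interaction with the filter on 1 group, were added after seeing the data. The scripts were tested on simulated data. A few list members, though counted in their lists, are not reported here by name.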

Additional observations from a re-analysis of the deposited data

Results flagged for a closer look

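In 176 groups of 6 arrays, 1 array lay far from the other 5 by Dixon's test 14 times, where chance alone would give 8.8. Among leading genes, OVX replicate 6 was high in Cpne9 (1.98, the others 1.37 to 1.54) and in Atp6v0a4 (-3.14, the others -3.81 to -3.66), and OVX+stress replicate 5 was low in Ap1s3 (-2.40, the others -2.18 to -2.14). OVX replicate 4 was low in the glucocorticoid receptor Nr3c1 (4.25, the others 4.39 to 4.47), high in its target Tsc22d3 (4.15, the others 3.38 to 3.55) and high in the mean of glucocorticoid-induced genes (0.309, the others -0.174 to -0.03). Cx3cr1 was high in OVX replicate 2 (4.17, the others 3.92 to 4.01) and Esr2 in OVX+stress replicate 3 (2.17, the others 1.03 to 1.43).

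OVX+stress replicate 5 stood apart in Lcn2 (1.03), in S100a9 (2.10) and in the mean of neutrophil genes (2.14, the others -0.476 to 0.186), and OVX+stress replicate 6 in the mean of meningeal markers (1.84, the others -0.65 to -0.331). OVX replicate 3 was high in the mean of interferon-stimulated genes (0.236, the others -0.135 to -0.016) and low in that of cytosolic ribosomal protein genes (-0.107, the others 0 to 0.033).

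The effect of stress on Tspan33 differed between ovariectomized and sham-operated mice, at -0.35 and 0.05 (interaction -0.40, limma adjusted p = 0.0467). With slide as a block the interaction was -0.23 and was no longer called.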

How the results depend on the processing

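The count of 0 probes called for stress after ovariectomy held under every alternative but 2. Without the filter on dim probes 1 probe was called, 1700006A11Rik, which was well above background on 0 of 12 arrays, and without OVX replicate 6 the count was 4 (leaving out each array in turn gave 0 to 4). The replicate block also gave 0, with 2758 probes at an unadjusted p under 0.05, and changed no other call of this comparison. The 58 named genes had 1566 values under these alternatives, with 38 changes of sign, and the 30 list medians 810 values, with 78. The spike-in scaling turned the sign of 10 genes and 14 medians, the within-slide fit 6 genes and 9 medians, and leaving out OVX+stress replicates 3, 5 and 6 together 5 genes and 10 medians. Of the OVX mice, 123 probes differed between the slides, 224 with the spike-in scaling, 189 with the filter on 1 group, 0 by the methods' t-test, and 0 to 146 when each array was left out. The 1249 probes of the interaction became 0 with the spike-in scaling, 1 without the filter on dim probes, 712 by the methods' t-test, 386 with the replicate block, and 0 with slide as a fixed or random block. Leaving out each array in turn gave 1 to 3832. The count was 1 without control replicate 1, 5 or 6, stress replicate 3, 4, 5 or 6, OVX replicate 1, 2, 3 or 4 or OVX+stress replicate 3, and 2 without OVX+stress replicate 1. It was 437 without OVX+stress replicate 2, 637, 662 and 729 without control replicates 2, 3 and 4, and 3832 and 3321 without stress replicates 1 and 2. For the slide difference, only leaving out OVX replicate 1 kept a count close to 123. The causes were not tested. With a median standard error of 0.0809, or 0.1127 within the slide, small differences were not detectable, and dim probes were left out.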

Other observations

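Gene groups of cell metabolism and protein turnover differed little between OVX+stress and OVX mice. The 77 tested cytosolic ribosomal protein genes had a median difference of 0.01 (1 higher at an unadjusted p under 0.05), the 77 mitochondrial ribosomal protein genes 0.002 (none), the 64 oxidative phosphorylation genes -0.007 (1 lower) and the 37 proteasome subunit genes -0.01 (none). The spike-in scaling took the ribosomal medians to -0.14 and -0.15. Of 16 cold-inducible and heat shock genes none reached the unadjusted level, with the cold-shock RNA-binding proteins Cirbp and Rbm3 at 0.11 ± 0.12 and 0.30 ± 0.16. Of 22 interferon-stimulated genes 1 was lower, Ifi27 at -0.27 ± 0.08, and of 5 tested cytokine and inflammasome genes none.

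At the synapse, 21 of 26 genes of vesicles and release were higher, with a median of 0.042 that was -0.11 with the spike-in scaling, with the syntaxin Stx1a at 0.13 ± 0.05 and the synaptotagmin Syt11 at -0.10 ± 0.05, 1 higher and 1 lower at the unadjusted level. Of 26 glutamate receptor and transporter genes, 3 were higher and 2 lower at the unadjusted level, among them the presynaptic receptor Grm2 (0.23 ± 0.09) and the kainate receptor subunit Grik3 (-0.23 ± 0.09, its other probe -0.055), which was lower beside Grik1. None of 14 GABA receptor genes reached that level. Of 71 potassium channel genes, 5 were higher (7.04%) and 3 lower (4.23%), against 5.67% and 4.34% of all probes. Of 8 neurotrophin genes the receptor Ngfr was lower, by 0.25 ± 0.09.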
